A study of Mus musculus with 15 samples.

Results

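The 9 genes Tnfrsf11a, Oscar, Nfatc1, Dcstamp, Ocstamp, Atp6v0d2, Acp5, Ctsk and Calcr mark and drive the differentiation of osteoclasts, and they were picked by name from the 56979 gene identifiers of the deposited table. All 9 had a row. Their RNA was measured in mouse bone marrow cells, wild type in every group, by sequencing of polyadenylated RNA. Bone marrow-derived macrophages (BMDM, 9 libraries) comprised LPS_NZM (treatment LPS+NZM), LPS (lipopolysaccharide, a bacterial outer-membrane component that activates macrophages) and Control (vehicle). BMSC, given only by that abbreviation, comprised Aged_NZM (treatment H2HO+NZM) and Aged (treatment H2HO). Each group held 3 libraries, and the design text places NZM after pretreatment with the model drugs. The labels explain neither NZM nor H2HO, give no dose, time or age, name no RANKL or CSF1 in the cultures, and do not say whether the libraries of a group are separate animals or cultures, so p-values reflect variation among the sequenced libraries alone, and it may be technical. Macrophages without LPS but with NZM were not analysed here.

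Osteoclasts are multinucleated cells that resorb bone and that arise from the same myeloid precursors as macrophages. The cytokine RANKL (Tnfsf11), made by stromal cells, osteoblasts and lymphocytes, binds its receptor RANK (Tnfrsf11a) on the precursor, while osteoprotegerin (Tnfrsf11b) is a soluble decoy that captures RANKL. RANK signals through TRAF6, NF-kB and c-Fos and, together with co-receptors such as OSCAR, induces the transcription factor NFATc1, which in turn activates the genes for cell fusion (Dcstamp, Ocstamp, Atp6v0d2), resorption (Acp5, Ctsk) and the calcitonin receptor (Calcr).

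The regions just before the transcription start are shown for 3 members that moved differently in the macrophages, since Tnfrsf11a was lower with LPS, Acp5 was higher with LPS and Ctsk overlapped between groups in TPM. The sequences are RefSeq's, from the mouse build GRCm38.p6, an older build than the GRCm39 named for the deposited values. Each is the 250 bases before a start site, read 5′ to 3′ on the gene's strand, and for Acp5, which has 3 such windows in RefSeq, the one farthest downstream. Capitals mark the NFAT core GGAAA or its reverse complement.
Tnfrsf11a, chr1:105780473-105780722, plus strand: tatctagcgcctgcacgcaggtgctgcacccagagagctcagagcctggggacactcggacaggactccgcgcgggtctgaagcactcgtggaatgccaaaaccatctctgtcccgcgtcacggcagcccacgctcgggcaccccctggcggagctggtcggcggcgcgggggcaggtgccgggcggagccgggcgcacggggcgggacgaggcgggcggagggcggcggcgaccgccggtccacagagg
Ctsk, chr3:95498960-95499209, plus strand: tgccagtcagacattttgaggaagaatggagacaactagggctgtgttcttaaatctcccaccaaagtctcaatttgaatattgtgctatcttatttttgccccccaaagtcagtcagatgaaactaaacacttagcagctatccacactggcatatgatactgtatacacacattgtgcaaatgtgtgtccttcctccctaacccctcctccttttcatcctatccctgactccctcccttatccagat
Acp5, chr9:22130599-22130848, minus strand: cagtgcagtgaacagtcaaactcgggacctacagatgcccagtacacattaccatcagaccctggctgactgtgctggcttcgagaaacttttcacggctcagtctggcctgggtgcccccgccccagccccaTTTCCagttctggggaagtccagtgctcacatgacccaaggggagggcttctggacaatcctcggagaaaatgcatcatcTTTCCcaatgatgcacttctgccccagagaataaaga
The NFAT core was absent from the Tnfrsf11a and Ctsk windows, while the Acp5 window held 2 matches. Over all 32851 promoter windows of this length, 55.6% held at least 1. The MITF E-box TCANNTGA, present in 7.09% of all windows, had 1 match each in the Ctsk and Acp5 windows and none in that of Tnfrsf11a. The NF-kB motif, searched as GGG and CC with 5 free bases between them and present in 45.8% of windows, had 2 matches each in the Tnfrsf11a and Acp5 windows and none in that of Ctsk. The Acp5 windows not shown held 1 NFAT core each and no MITF E-box, with 0 and 2 NF-kB matches, so the counts for Acp5 depend on the window. The AP-1 motif TGANTCA (6.75% of windows) and the PU.1 motif GAGGAAGT (2.44% of windows) were not found in any of the 8 member windows counted, which belong to 5 of the members. No counts are given for the other members, Nfatc1 among them. Both strands were searched, matches were allowed to overlap, and the free positions N of a motif can hold letters of another. A match describes letters only and is no evidence of binding.

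Values are TPM, a length-corrected share of each library's transcripts, so levels can be compared between genes, and all changes are log2 changes of TPM + 1 from the limma fit, with a call at an adjusted p under 0.05. The 15 libraries listed between 21360 and 23398 identifiers above 0, and their depth is unknown. The scale matters for these comparisons. The median change over all 14486 tested genes was -0.48 in LPS against Control and 0.40 in LPS_NZM against LPS, and subtracting each library's median over those genes (centring) added 0.55 to every change of the first, -0.46 to those of the second and 0.08 to those of LPS_NZM against Control. Changes are therefore given as deposited and after centring. In bulk libraries, fewer cells of a type and less RNA per cell cannot be told apart. All 8 macrophage markers were present in the macrophage libraries, with summed levels of 22035.4 to 22541.9 TPM in LPS_NZM, 22388.2 to 22590.0 TPM in LPS and 26593.4 to 28944.7 TPM in Control. These sums were mostly Lyz2, at 17530.2 ± 214.4 TPM in LPS_NZM, 16305.8 ± 56.2 TPM in LPS and 22619.9 ± 1389.9 TPM in Control, and say little of the other markers. In BMSC 5 of these 8 markers reached 1 TPM, with sums of 107.3 to 120.0 TPM in Aged_NZM and 121.2 to 129.5 TPM in Aged, mostly Cd14 at 93.7 ± 4.78 TPM in Aged_NZM and 94.2 ± 2.77 TPM in Aged, while Adgre1 did not pass 0.03 TPM. The Control libraries differed among themselves in mast cell transcripts, with Cpa3 at 0.73, 331.78 and 115.88 TPM. Leaving out each library in turn is reported with the calls it changed.

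In the vehicle-treated Control macrophages the 9 genes covered a wide range of levels. Acp5 was the highest at 333.8 ± 5.74 TPM (SD, n = 3, as for all means), followed by Ctsk at 160.5 ± 5.17 TPM and Tnfrsf11a at 77.2 ± 3.88 TPM. Nfatc1 (45.0 ± 1.60 TPM) and Atp6v0d2 (44.1 ± 3.19 TPM) overlapped in their libraries and could not be ranked. Dcstamp, Ocstamp, Oscar and Calcr followed in that order with libraries that did not overlap. Acp5 and Ctsk stayed the highest of the 9 in all 3 groups, whereas Atp6v0d2 came next in LPS_NZM, above Tnfrsf11a, and overlapped with Nfatc1 in LPS, as it did in Control. Dcstamp and Ocstamp overlapped in LPS_NZM, but not in LPS or Control. Calcr stayed under 1 TPM in every library and was not tested, so 8 of the 9 members passed the filter of at least 1 TPM in at least 3 libraries. Oscar, which reached 1 TPM in 7 of the 9 macrophage libraries, was the lowest member that passed.

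**Figure D1:**
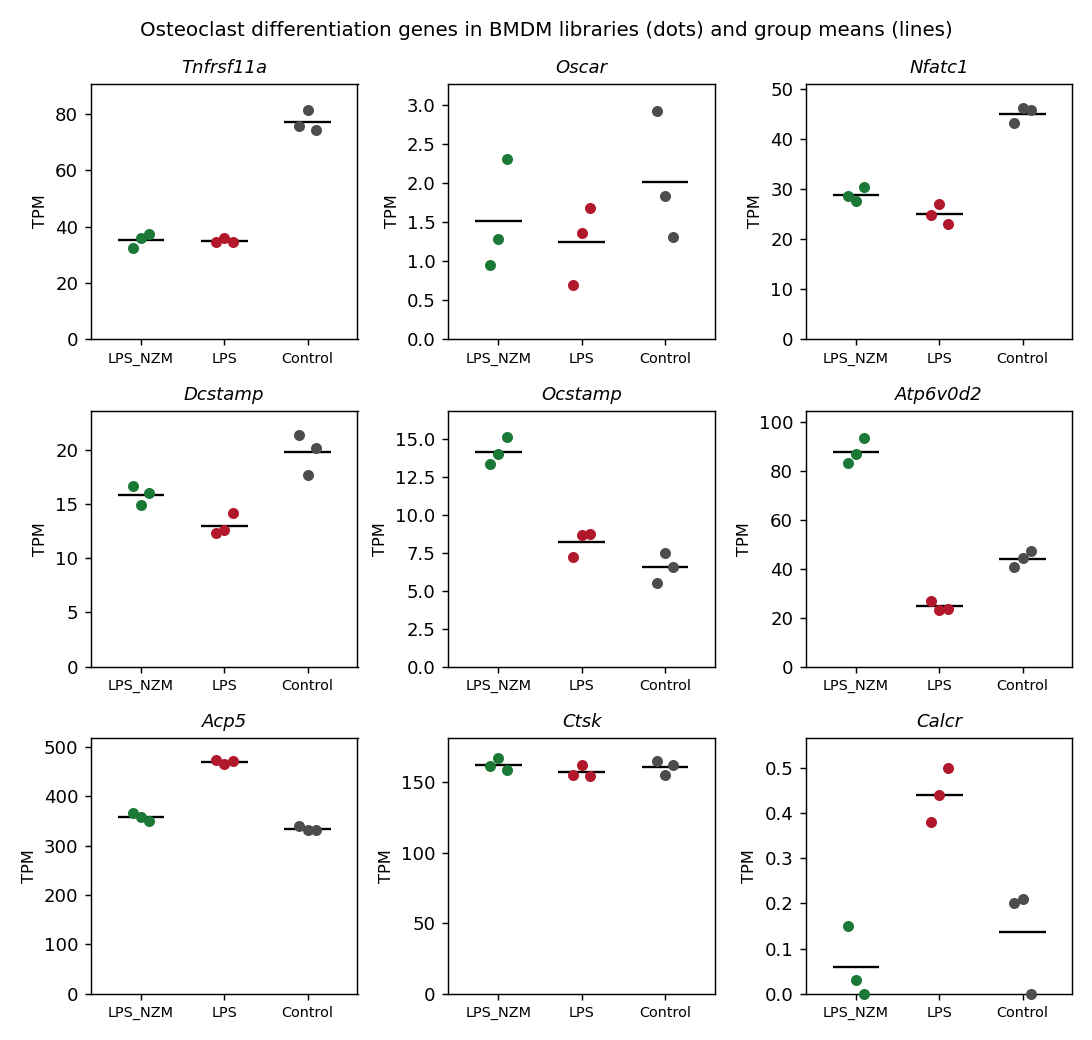
TPM of the 9 genes in each macrophage library (dots, 3 per group) with group means (lines), in LPS_NZM, LPS and Control, each panel on its own scale from 0. Tnfrsf11a and Nfatc1 are lower in both LPS_NZM and LPS than in Control, Atp6v0d2 is highest in LPS_NZM and lowest in LPS, and Ctsk overlaps in all 3 groups.

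LPS against Control shows how these genes moved with the model drug. Of the 8 tested members, 4 fell (Tnfrsf11a, Nfatc1, Atp6v0d2, Dcstamp) and 2 rose (Acp5, Ocstamp). Over all tested genes 80.8% were called, 65.6% lower and 15.2% higher, so a count of 6 of 8 is near that background. After centring, 3 members were higher (Acp5, Ocstamp, Ctsk) and 3 lower (Tnfrsf11a, Nfatc1, Atp6v0d2), against 65.5% of all genes called, 36.5% higher and 29.1% lower. The median change of the 8 was -0.49, beside -0.48 over all genes tested.

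LPS_NZM against LPS shows how they moved with NZM in LPS-treated macrophages. Here 4 members rose (Atp6v0d2, Ocstamp, Dcstamp, Nfatc1) and 1 fell (Acp5), where 77.3% of all genes were called, 60.4% higher and 16.9% lower. After centring, 1 member was higher (Atp6v0d2) and 4 were lower (Acp5, Tnfrsf11a, Ctsk, Nfatc1), beside 65.1% of all genes called, 29.8% higher and 35.3% lower. The median change of the 8 was 0.18, against 0.40 over all genes. The calls that had the same direction on both scales were those of Atp6v0d2 and Acp5.

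LPS_NZM against Control shows where the 2 treatments together left these genes. Ocstamp, Atp6v0d2 and Acp5 were higher and Tnfrsf11a, Nfatc1 and Dcstamp lower, 6 of 8, where 47.7% of all genes were called, 18.6% higher and 29.1% lower. After centring 3 were higher and 2 lower, beside 47.0% of all genes called, 24.9% higher and 22.0% lower, with Dcstamp no longer called. The median change of the 8 was -0.12, against -0.07 over all genes. The 3 comparisons share their libraries in pairs, so their values stand side by side and are not independent of one another.

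**Figure D2:**
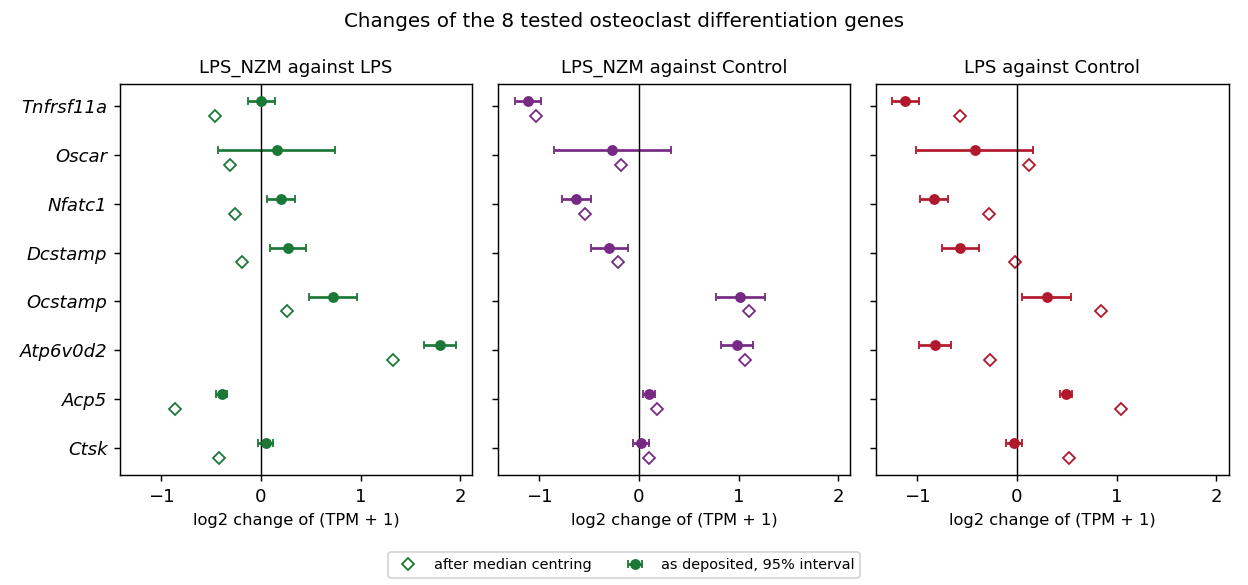
Log2 change of TPM + 1 for the 8 tested genes in LPS_NZM against LPS, LPS_NZM against Control and LPS against Control, as deposited (filled, with 95% interval) and after median centring (open). Centring moves every gene of a comparison by the same amount, 0.55 in LPS against Control, -0.46 in LPS_NZM against LPS and 0.08 in LPS_NZM against Control.

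Tnfrsf11a (ENSMUSG00000026321), the receptor RANK, read 32.29, 35.89 and 37.55 TPM in LPS_NZM, 34.52, 36.11 and 34.64 TPM in LPS, and 75.89, 81.61 and 74.22 TPM in Control. Every treated library lay below every Control library, and the libraries of LPS_NZM and LPS overlapped. It fell by 1.12 on the log2 scale in LPS against Control (SE 0.06, adjusted p = 4.95e-08), and the fall was called after centring as well (-0.57). In LPS_NZM against Control the change was -1.11 (SE 0.06, adjusted p = 2.47e-07), or -1.03 after centring. Between LPS_NZM and LPS the change was 0.00 as deposited (95% interval -0.13 to 0.14, adjusted p = 0.958), but -0.46 after centring (adjusted p = 1.99e-05). In means of TPM its level was 0.456 times that of Control in LPS_NZM and 0.455 times in LPS.

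Csf1r, the receptor of the growth factor that keeps macrophages and osteoclast precursors alive, was measured in the same libraries. It read 1278.9 ± 14.3 TPM in LPS_NZM, 624.9 ± 20.1 TPM in LPS and 1099.7 ± 57.9 TPM in Control. The ratio of Tnfrsf11a to Csf1r, which no scaling of a library can change, was 0.0251, 0.0279 and 0.0297 in LPS_NZM, 0.0560, 0.0592 and 0.0535 in LPS, and 0.0735, 0.0723 and 0.0653 in Control. The 3 groups did not overlap in this ratio, which was lowest in LPS_NZM. This and the other ratios between 2 genes were chosen after their values were seen and carry no test.

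The ligand and the decoy of RANK moved in opposite directions in LPS_NZM against LPS. Tnfsf11, which encodes RANKL, read 2.07, 2.37 and 3.73 TPM in LPS_NZM, 15.17, 13.08 and 12.73 TPM in LPS, and 3.92, 3.47 and 3.81 TPM in Control. It rose with LPS (log2 change 1.63, SE 0.15, adjusted p = 3.40e-06) and fell with NZM (-2.00, SE 0.15, adjusted p = 7.25e-07), both also after centring. In LPS_NZM against Control its change of -0.37 was not called (adjusted p = 0.0677).

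Tnfrsf11b, the decoy receptor osteoprotegerin, read 82.37, 79.49 and 77.50 TPM in LPS_NZM, 26.05, 25.55 and 24.25 TPM in LPS, and 34.96, 33.58 and 31.75 TPM in Control. Its rise in LPS_NZM held against LPS (1.62, SE 0.05, adjusted p = 6.50e-10) and against Control (1.23, SE 0.05, adjusted p = 2.64e-08), and on both scales. In LPS against Control it changed by -0.39 as deposited and by 0.16 after centring, called in both cases, so its direction there depends on the scale. The ratio of Tnfsf11 to Tnfrsf11b was 0.0344 ± 0.0122 in LPS_NZM, 0.540 ± 0.0375 in LPS and 0.112 ± 0.00834 in Control, with no overlap between any of the groups.

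RANKL and osteoprotegerin are known products of stromal cells, and stromal transcripts were present in these libraries. Of 11 stromal and osteoblast markers 10 reached 1 TPM in each group, with summed levels of 2408.5 to 2511.6 TPM in LPS_NZM, 2209.3 to 2422.6 TPM in LPS and 2794.3 to 3022.5 TPM in Control. These sums were mostly Col1a1 and Col1a2, with Col1a1 at 1079.0 TPM in LPS_NZM, 1036.4 TPM in LPS and 1302.5 TPM in Control. Of the 10 tested, 0 rose and 7 fell with LPS (7 and 2 after centring). Over all genes 15.2% rose and 65.6% fell (36.5% and 29.1% after centring). With NZM in LPS-treated cells 5 rose and 2 fell (3 and 6 after centring). Over all genes 60.4% rose and 16.9% fell there (29.8% and 35.3% after centring). Sp7, the osteoblast transcription factor osterix, had the largest change of the tested markers in LPS against Control (-2.12). It averaged 8.02 ± 1.11 TPM in LPS_NZM, 1.28 ± 0.0231 TPM in LPS and 8.90 ± 0.125 TPM in Control, and did not pass 0.23 TPM in BMSC. Bglap, the osteocalcin gene, did not pass 0.34 TPM. The T lymphocyte markers Cd3e, Cd3g and Cd8a together read 0.930 to 5.39 TPM in LPS_NZM, 0 to 1.07 TPM in LPS and 0.120 to 5.46 TPM in Control. The 3 B lymphocyte markers summed to at most 5.74 TPM. The part of these cells in the levels of Tnfsf11 and Tnfrsf11b was not tested.

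**Figure D3:**
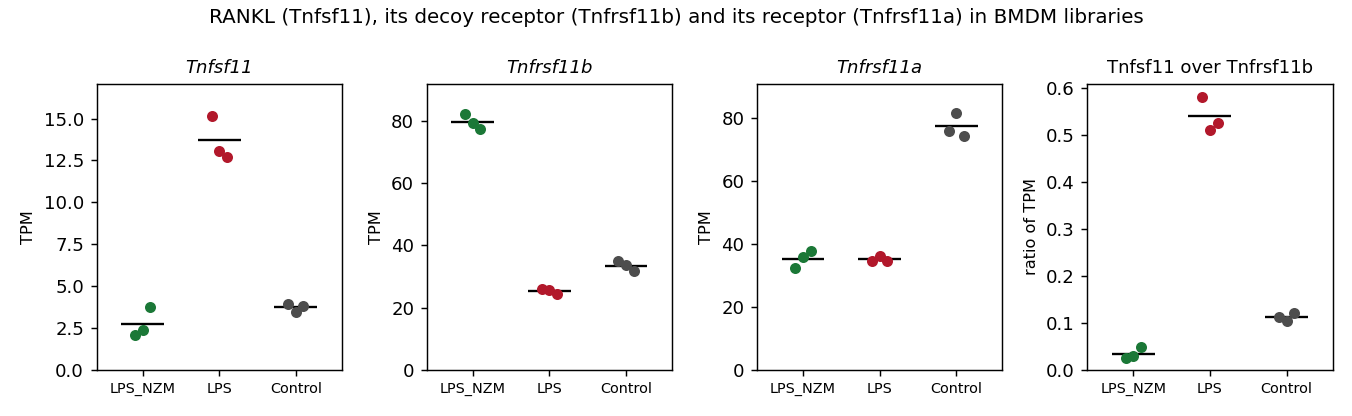
TPM of Tnfsf11 (RANKL), Tnfrsf11b (osteoprotegerin) and Tnfrsf11a (RANK), and the ratio of the first to the second, in each macrophage library (dots) with group means (lines). Tnfsf11 and the ratio are highest in LPS, Tnfrsf11b is highest in LPS_NZM, and Tnfrsf11a is highest in Control.

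RANKL and CSF1 signalling was a list of 14 genes, Tnfrsf11a among them. Counts for this and the later lists stand beside the shares of all tested genes. These shares were 15.2% higher and 65.6% lower in LPS against Control (36.5% and 29.1% after centring). They were 60.4% and 16.9% in LPS_NZM against LPS (29.8% and 35.3% after centring). For LPS_NZM against Control they were 18.6% and 29.1% (24.9% and 22.0% after centring). The lists were not tested as sets. In LPS against Control 6 rose and 6 fell (10 and 3 after centring), led by the NF-kB subunit genes Nfkb2, Relb and Nfkb1 with changes of 3.27, 2.62 and 2.46 and by Map3k14, the kinase of the alternative NF-kB route, with -1.67. In LPS_NZM against LPS 7 rose and 5 fell (5 and 9 after centring), with Nfkb2 at -2.08 and Relb at -1.14. Against Control 8 of the 14 were higher in LPS_NZM and 3 lower (9 and 3 after centring). The medians were -0.04, 0.08 and 0.22 in these 3 comparisons. Csf1, the growth factor that sustains macrophages, averaged 712.9 ± 17.5 TPM in LPS_NZM, 462.5 ± 15.5 TPM in LPS and 449.9 ± 7.80 TPM in Control, and was higher in LPS_NZM than in both other groups on either scale. Traf6, the adaptor that RANK recruits, was close in all groups, at 16.6 ± 0.374 TPM in LPS_NZM, 14.8 ± 0.758 TPM in LPS and 16.7 ± 0.394 TPM in Control. Its direction turned with the scale, at -0.17 as deposited and 0.37 after centring in LPS against Control, and at 0.16 and -0.31 in LPS_NZM against LPS.

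Oscar (ENSMUSG00000054594) encodes an osteoclast-associated receptor that signals through the Fc receptor gamma chain. It was near the lower limit of what was tested, at 0.95, 1.29 and 2.31 TPM in LPS_NZM, 0.69, 1.36 and 1.68 TPM in LPS, and 2.92, 1.84 and 1.31 TPM in Control. The groups overlapped, and none of its changes was called. The intervals were wide, at -1.01 to 0.16 in LPS against Control and -0.43 to 0.74 in LPS_NZM against LPS, so these libraries cannot separate no change from a sizeable one.

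Other genes of co-receptor signalling were more abundant. Trem2, a co-receptor that signals through Tyrobp, averaged 664.0 ± 20.3 TPM in LPS_NZM, 263.8 ± 1.85 TPM in LPS and 737.8 ± 22.0 TPM in Control, and Syk, the kinase beneath both adaptors, 108.2 ± 1.68, 475.4 ± 11.9 and 100.8 ± 4.14 TPM in the same order of groups. Of the 12 genes listed for co-receptors and calcium signalling 11 were tested. With LPS 2 rose and 6 fell (4 and 5 after centring), and with NZM in LPS-treated cells 7 rose and 2 fell (4 and 3 after centring). Syk rose with LPS (2.23) and fell with NZM (-2.12), while Tec, another cytoplasmic kinase, went the other way (-2.26 and 2.28), both on either scale. In LPS_NZM against Control 3 were higher and 3 lower (3 and 2 after centring). The medians were -0.62, 0.43 and -0.05.

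Nfatc1 (ENSMUSG00000033016), the transcription factor that acts as the master regulator of osteoclast differentiation, read 28.49, 27.55 and 30.39 TPM in LPS_NZM, 24.82, 27.02 and 23.03 TPM in LPS, and 43.15, 46.06 and 45.74 TPM in Control. The groups did not overlap, with Control highest and LPS lowest. It fell by 0.83 on the log2 scale in LPS against Control (SE 0.06, adjusted p = 7.87e-07) and changed by -0.63 in LPS_NZM against Control (SE 0.06, adjusted p = 2.73e-05), both also after centring (-0.28 and -0.54). In LPS_NZM against LPS the small rise of 0.20 (SE 0.06, adjusted p = 0.0143) became -0.26 after centring (adjusted p = 0.00234). That rise was also not called without LPS_NZM replicate 3 (adjusted p = 0.0543) or without LPS replicate 3 (adjusted p = 0.0565).

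Fos, which acts upstream of Nfatc1, had the same order of groups, at 80.4 ± 0.220 TPM in LPS_NZM, 56.1 ± 1.41 TPM in LPS and 156.9 ± 1.93 TPM in Control. Its fall with LPS (-1.47) and its lower level in LPS_NZM than in Control (-0.96) were called on both scales. Spi1, which encodes the myeloid factor PU.1, ran the other way, at 460.4 ± 8.52 TPM in LPS_NZM, 700.6 ± 9.67 TPM in LPS and 322.7 ± 11.4 TPM in Control. Mitf, whose product cooperates with NFATc1 on resorption genes, averaged 54.0 ± 1.17 TPM in LPS_NZM, 38.6 ± 0.471 TPM in LPS and 37.1 ± 1.89 TPM in Control. Of the 14 listed osteoclast transcription factors 8 rose and 4 fell with LPS (10 and 4 after centring), led by Batf (3.27), Fos, Prdm1 (1.22) and Jdp2 (1.17). Prdm1, which encodes the repressor Blimp1, averaged 12.4 ± 0.508 TPM in LPS_NZM, 21.3 ± 0.799 TPM in LPS and 8.61 ± 1.02 TPM in Control. With NZM in LPS-treated cells 6 rose and 7 fell (1 and 9 after centring), Batf (-1.91) and Myc (1.67) having the largest changes. Set against Control, LPS_NZM had 8 higher and 3 lower. The medians were 0.41, -0.10 and 0.35.

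Irf8, a transcription factor that inhibits osteoclast differentiation, averaged 86.9 ± 2.50 TPM in LPS_NZM, 101.5 ± 1.95 TPM in LPS and 119.2 ± 0.802 TPM in Control. Its change in LPS against Control turned with the scale, from -0.23 as deposited to 0.32 after centring, while it was lower in LPS_NZM than in either other group on both scales. Bcl6, a repressor of osteoclast genes, averaged 43.5 ± 1.25 TPM in LPS_NZM, 70.8 ± 1.75 TPM in LPS and 66.3 ± 1.14 TPM in Control. Of the 12 listed inhibitors 4 rose and 6 fell with LPS (9 and 2 after centring), led by the NF-kB inhibitor Tnfaip3 (4.40), and 5 rose and 6 fell with NZM in LPS-treated cells (3 and 7 after centring). LPS_NZM had 4 of them higher and 4 lower than Control (6 and 3 after centring). The medians were -0.18, -0.14 and -0.01.

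**Figure D4:**
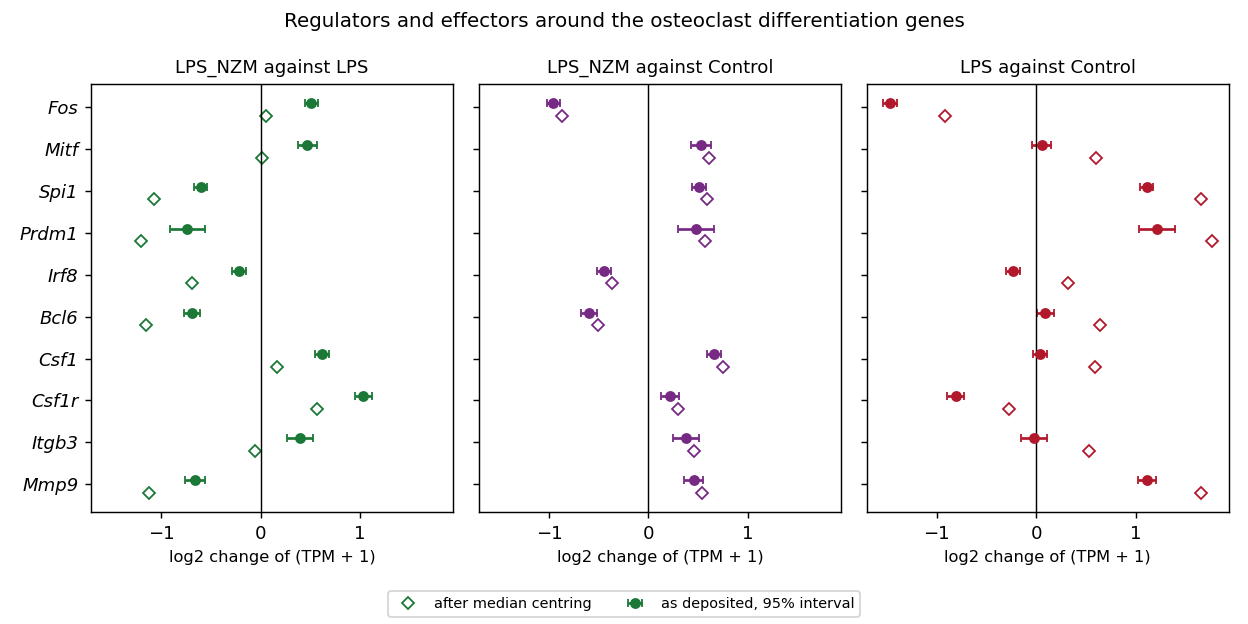
Log2 change of TPM + 1 in the macrophages for 10 regulators and effectors outside the 9 genes, as deposited (filled, with 95% interval) and after median centring (open). Fos has the largest fall in LPS against Control (-1.47) and Csf1r the largest rise in LPS_NZM against LPS (1.03) of these genes.

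The 3 fusion genes did not move as a unit. Dcstamp (ENSMUSG00000022303), a membrane protein required for the fusion of precursors, read 16.69, 14.98 and 16.05 TPM in LPS_NZM, 12.34, 12.61 and 14.16 TPM in LPS, and 21.44, 17.73 and 20.21 TPM in Control. The groups did not overlap. As deposited it fell with LPS (-0.57, SE 0.08, adjusted p = 9.78e-05), rose with NZM (0.27, SE 0.08, adjusted p = 0.0120) and was lower in LPS_NZM than in Control (-0.30, SE 0.08, adjusted p = 0.0135). None of these was called after centring, with changes of -0.02, -0.19 and -0.21 in that order (adjusted p = 0.862, 0.0716 and 0.0680), and the last was also not called without LPS_NZM replicate 2 (adjusted p = 0.0527). Dcstamp was first described in dendritic cells, whose markers summed to 68.3 to 72.3 TPM in LPS_NZM, 47.0 to 49.6 TPM in LPS and 25.5 to 28.5 TPM in Control. The sums in LPS_NZM and Control were mostly Itgax, at 62.9 ± 1.31 TPM in LPS_NZM, 23.9 ± 0.592 TPM in LPS and 22.8 ± 2.11 TPM in Control. Ccr7 averaged 1.74 ± 0.190, 21.7 ± 1.38 and 1.46 ± 0.199 TPM in the same order, so the markers did not move together. Flt3 and Clec9a stayed at or under 0.54 TPM, and the part of these 6 markers in Dcstamp was not tested.

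Ocstamp (ENSMUSG00000027670), another fusion protein of this kind, read 13.38, 14.02 and 15.16 TPM in LPS_NZM, 7.26, 8.68 and 8.77 TPM in LPS, and 5.54, 7.51 and 6.60 TPM in Control. LPS_NZM lay above both other groups, which overlapped. It was higher in LPS_NZM than in Control on both scales (1.01 as deposited, SE 0.11, adjusted p = 4.07e-05, and 1.10 after centring). Against LPS the rise of 0.72 (SE 0.11, adjusted p = 0.000145) was 0.26 after centring (adjusted p = 0.0504). The small rise in LPS against Control (0.30, SE 0.11, adjusted p = 0.0283) lost its call when any 1 of 4 libraries was left out, Control replicate 1 (0.20, adjusted p = 0.105), the third Control library (adjusted p = 0.0506), LPS replicate 2 (adjusted p = 0.0850) or LPS replicate 3 (adjusted p = 0.0898). It was also not called with no filter on low values (adjusted p = 0.0623), and was called after centring (0.84). The ratio of Ocstamp to Dcstamp was 0.894 ± 0.0801 in LPS_NZM, 0.632 ± 0.0512 in LPS and 0.336 ± 0.0830 in Control, without overlap.

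Atp6v0d2 (ENSMUSG00000028238), a V-ATPase subunit that also takes part in fusion, showed the largest change among the members. It read 83.35, 87.18 and 93.44 TPM in LPS_NZM, 26.90, 23.28 and 23.62 TPM in LPS, and 40.81, 44.27 and 47.18 TPM in Control. The 3 groups were well separated, with LPS lowest. It fell with LPS (-0.82, SE 0.07, adjusted p = 2.23e-06), rose with NZM (1.80, SE 0.07, adjusted p = 5.58e-09) and was higher in LPS_NZM than in Control (0.98, SE 0.07, adjusted p = 2.62e-06). All 3 calls had the same direction after centring, at -0.27, 1.33 and 1.06. In means of TPM the level in LPS_NZM was 3.58 times that in LPS and 2.00 times that in Control.

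The ubiquitous paralog Atp6v0d1 read 191.1 ± 5.44 TPM in LPS_NZM, 147.6 ± 2.62 TPM in LPS and 167.2 ± 5.08 TPM in Control. Its change in LPS against Control was -0.18 as deposited and 0.37 after centring. The ratio of Atp6v0d2 to Atp6v0d1 was 0.461 ± 0.0363 in LPS_NZM, 0.167 ± 0.0108 in LPS and 0.264 ± 0.0115 in Control, with no overlap. The ratio of Atp6v0d2 to Tnfrsf11a, members that both fell with LPS, was 2.50 ± 0.0767 in LPS_NZM, 0.702 ± 0.0695 in LPS and 0.572 ± 0.0552 in Control. Of the 12 genes listed for fusion and attachment 5 rose and 6 fell with LPS (7 and 4 after centring), 8 rose and 3 fell with NZM in LPS-treated cells (3 and 5 after centring), and 7 were higher and 2 lower in LPS_NZM than in Control. Adam8, a membrane protease, averaged 2720.2 ± 23.4 TPM in LPS_NZM, 429.4 ± 13.4 TPM in LPS and 2260.1 ± 30.2 TPM in Control, while the integrin gene Itgb3 averaged 24.1 ± 0.965, 18.0 ± 1.12 and 18.2 ± 0.420 TPM in the same order. The medians of this list were -0.24, 0.34 and 0.32.

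Acid secretion depends on the V-ATPase, carbonic anhydrase and chloride transport. Of its 14 listed genes, Atp6v0d2 among them, 4 rose and 9 fell with LPS (7 and 4 after centring), and 9 rose and 4 fell with NZM in LPS-treated cells (6 and 7 after centring). Atp6v1b2, another V-ATPase subunit, shared the high level in LPS_NZM, at 938.9 ± 9.38 TPM against 356.9 ± 6.66 TPM in LPS and 506.5 ± 13.5 TPM in Control. Car2, carbonic anhydrase 2, was highest in LPS, at 6.22 ± 1.87 TPM in LPS_NZM, 22.3 ± 2.98 TPM in LPS and 3.51 ± 0.729 TPM in Control, and Snx10, a vesicle sorting gene, read 143.7 ± 8.10, 680.4 ± 11.7 and 193.6 ± 11.3 TPM in that order. Relative to Control, 6 were higher and 5 lower in LPS_NZM (7 and 2 after centring). The medians were -0.34, 0.38 and -0.03.

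Acp5 (ENSMUSG00000001348), the tartrate-resistant acid phosphatase used to stain osteoclasts, read 365.51, 356.99 and 350.61 TPM in LPS_NZM, 472.33, 465.05 and 471.50 TPM in LPS, and 340.45, 330.50 and 330.50 TPM in Control. LPS stood above both other groups, and LPS_NZM lay slightly above Control without overlap. It rose with LPS (0.49, SE 0.03, adjusted p = 3.82e-08) and fell with NZM in LPS-treated cells (-0.39, SE 0.03, adjusted p = 2.15e-07), with larger changes after centring (1.04 and -0.86). The remaining difference between LPS_NZM and Control was small (0.10, SE 0.03, adjusted p = 0.00885) and was not called without the mean-variance trend (adjusted p = 0.0573).

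Ctsk (ENSMUSG00000028111), the cathepsin that degrades bone collagen, read 161.16, 167.19 and 158.68 TPM in LPS_NZM, 155.21, 162.31 and 154.46 TPM in LPS, and 164.59, 154.67 and 162.16 TPM in Control. All 3 groups overlapped. None of its changes was called as deposited, and the intervals were narrow, at -0.11 to 0.05 in LPS against Control, -0.03 to 0.12 in LPS_NZM against LPS and -0.06 to 0.10 in LPS_NZM against Control. After centring, Ctsk was called higher with LPS (0.52, adjusted p = 1.89e-06) and lower with NZM (-0.42, adjusted p = 9.23e-06). The ratio of Acp5 to Ctsk, which does not depend on the scale, was 2.20 ± 0.0665 in LPS_NZM, 2.99 ± 0.106 in LPS and 2.08 ± 0.0506 in Control.

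Of the 7 genes listed for bone matrix degradation, Ctsk included, 3 rose and 3 fell in LPS against Control (5 and 2 after centring), and 3 rose and 3 fell in LPS_NZM against LPS (1 and 4 after centring). Mmp9, the gelatinase of osteoclasts and macrophages, averaged 141.6 ± 4.25 TPM in LPS_NZM, 224.6 ± 13.0 TPM in LPS and 102.8 ± 1.66 TPM in Control. Mmp14, a membrane-bound collagenase, averaged 303.5 ± 9.11 TPM in LPS_NZM, 1370.7 ± 55.8 TPM in LPS and 259.0 ± 12.0 TPM in Control. Both were highest in LPS, as Acp5 was. Mmp9 is also a neutrophil gene, and the 8 neutrophil markers, all of which reached 1 TPM, summed to 1947.8 to 2347.8 TPM in LPS_NZM, 2221.9 to 2451.3 TPM in LPS and 1494.3 to 1687.6 TPM in Control. These sums were mostly Ngp and S100a9. By group means Ngp, Camp, S100a8 and S100a9 were highest in LPS, Elane, Mpo and Ltf were lowest there, and Retnlg was highest in LPS_NZM. The markers thus did not move together, and their part in the result was not tested. Ctsl, cathepsin L, averaged 519.4 ± 2.51 TPM in LPS_NZM, 307.0 ± 8.70 TPM in LPS and 1050.5 ± 75.7 TPM in Control. Relative to Control, LPS_NZM had 3 higher and 2 lower. The medians were -0.03, 0.05 and 0.10.

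Calcr (ENSMUSG00000023964), the calcitonin receptor and a marker of mature osteoclasts, read 0.15, 0.03 and 0.00 TPM in LPS_NZM, 0.38, 0.44 and 0.50 TPM in LPS, and 0.20, 0.21 and 0.00 TPM in Control. The LPS libraries lay above the others, but all were under 1 TPM, no test was made, and 1 library each of LPS_NZM and Control listed it at 0. Its relative Calcrl, the receptor for CGRP and adrenomedullin, was expressed, at 12.2 ± 1.58 TPM in LPS_NZM, 157.2 ± 1.23 TPM in LPS and 47.6 ± 4.26 TPM in Control. It rose with LPS (1.71, SE 0.09, adjusted p = 4.03e-08) and fell with NZM in LPS-treated cells (-3.59, SE 0.09, adjusted p = 1.64e-10), on both scales. Calcrl is abundant in endothelium, whose 3 markers summed to 61.6 to 64.5 TPM in LPS_NZM, 25.8 to 28.6 TPM in LPS and 25.1 to 28.1 TPM in Control. Of these markers Pecam1 averaged 55.9 ± 1.82 TPM in LPS_NZM, 11.5 ± 0.903 TPM in LPS and 13.6 ± 1.48 TPM in Control. Kdr averaged 1.61 ± 0.166 TPM in LPS_NZM, 10.1 ± 0.692 TPM in LPS and 5.44 ± 0.274 TPM in Control, an order that it alone of the 3 markers shared with Calcrl. Cdh5 averaged 5.07 ± 0.0781 TPM in LPS_NZM, 5.86 ± 1.02 TPM in LPS and 7.14 ± 0.573 TPM in Control, with LPS overlapping both other groups. Their part in the Calcrl result was not tested. The accessory proteins Ramp1, Ramp2 and Ramp3, which set the ligand of these receptors, stayed at means of at most 3.40 TPM in every macrophage group. Of the 4 tested genes of this family 1 rose and 1 fell in LPS against Control (2 and 0 after centring), and 1 rose and 1 fell in LPS_NZM against LPS (0 and 2 after centring). In LPS_NZM against Control Calcrl alone was called, lower by a log2 change of -1.89. The medians were 0.28, -0.07 and 0.21, and Ramp1 was not called after centring in any of these comparisons.

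The genes with the most similar profiles were found for each tested member by the root mean square difference of log2(TPM + 1), each gene centred on its own mean over the 9 macrophage libraries, among 12346 genes. For Tnfrsf11a they were Bhlhe41 (difference 0.0636) and Pitpnc1 (0.0690), and for Atp6v0d2 Man1a (0.0593) and Cd200r1 (0.0636). Cd200r1, an inhibitory receptor of myeloid cells, averaged 192.2 TPM in LPS_NZM, 53.2 TPM in LPS and 93.1 TPM in Control. Acp5 was nearest to Dhx38 (0.0294) and Max (0.0350), and Ctsk to Anxa2 (0.0216) and Unc93b1 (0.0322). Nfatc1 was nearest to Luc7l3 (0.0579) and Slc6a6 (0.0624), and Dcstamp to Cramp1l (0.0573) and Selenom (0.0580). The nearest genes of Ocstamp, Jund (0.123) and Cemip (0.124), and of Oscar, P2rx1 (0.185) and Dynlt1-ps1 (0.197), were less close.

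In BMSC most of these genes were near 0. Acp5, Tnfrsf11a, Ocstamp, Dcstamp, Atp6v0d2, Oscar and Calcr stayed under 1 TPM in all 6 libraries, Dcstamp being listed at 0 in each, and only Nfatc1 and Ctsk passed the filter. Nfatc1 read 16.76, 16.03 and 17.40 TPM in Aged_NZM and 18.68, 16.11 and 16.82 TPM in Aged. The groups overlapped (log2 change -0.04, 95% interval -0.19 to 0.11, adjusted p = 0.641). Ctsk read 0.55, 0.76 and 1.14 TPM in Aged_NZM and 1.79, 2.36 and 2.32 TPM in Aged, without overlap. Ctsk reached 1 TPM in 4 of the 6 libraries, every Aged library among them. It thus passed the filter only through Aged, its higher group, so its call and its place among the tested members depend on that group. It fell (-0.80, SE 0.16, adjusted p = 0.00123), also after centring (-0.65). Ctsk was the 1 member called of 2 tested, where 70.5% of all genes were called, 21.6% higher and 48.9% lower. After centring it was again 1 of 2, where 66.5% of all genes were called, 31.1% higher and 35.4% lower.

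Of the 11 stromal and osteoblast markers 8 reached 1 TPM in BMSC, with summed levels of 4199.8 to 4289.6 TPM in Aged_NZM and 1307.5 to 1409.4 TPM in Aged. Of the 5 macrophage markers tested in BMSC, 1 was called lower and 4 were not called (2 higher and 1 lower after centring). The 1 called lower was Cd68 (log2 change -0.88, adjusted p = 3.36e-06), at 13.0 ± 0.746 TPM in Aged_NZM and 24.9 ± 2.07 TPM in Aged. Cd14 was among those not called (-0.01). The part of these markers in the results was not tested. The BMSC libraries also held the ligand of RANK. Tnfsf11 averaged 15.9 ± 0.530 TPM in Aged_NZM and 9.07 ± 0.874 TPM in Aged (log2 change 0.75, SE 0.08, adjusted p = 1.49e-05), whereas Tnfrsf11b stayed under 1 TPM in these 6 libraries. The direction of the Tnfsf11 change with NZM was opposite to that in the macrophage libraries, and the difference between the NZM responses was itself called (-2.75, SE 0.18, adjusted p = 5.25e-09). Cell type and pretreatment differ together between these responses and cannot be told apart. Among the members, only Ctsk and Nfatc1 were tested in both cell types, Ctsk in BMSC only through its Aged libraries. Both had a higher NZM response in the macrophages as deposited (differences of 0.85 and 0.24), 2 of 2, where 72.0% of all genes differed, 54.8% higher and 17.2% lower. After centring only Nfatc1 was called, with a lower response in the macrophages (-0.38), where 68.6% of all genes differed, 28.7% higher and 39.9% lower. The other members were under 1 TPM in BMSC, and their responses are not compared.

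**Figure D5:**
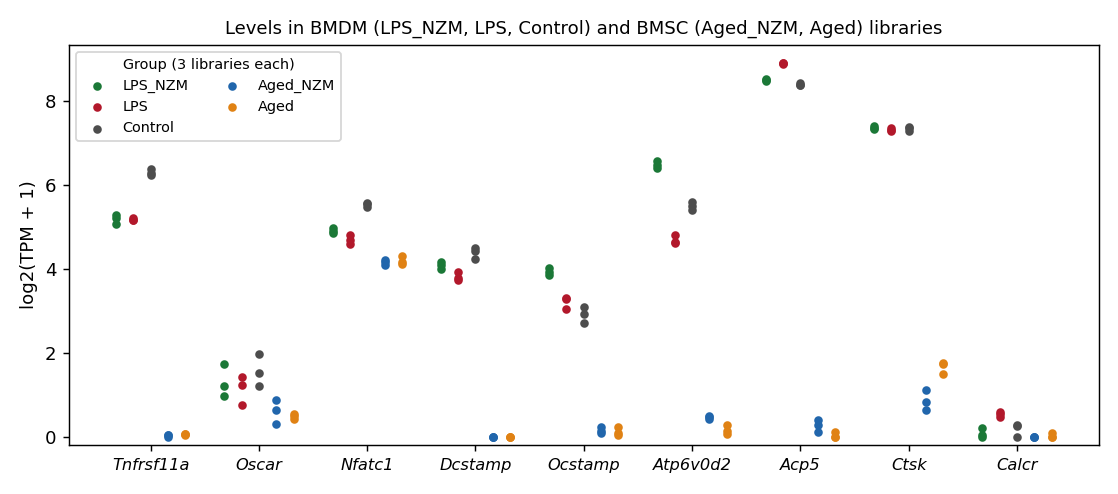
Levels of the 9 genes as log2(TPM + 1) in each library of the 3 macrophage groups and the 2 BMSC groups (dots, 3 per group). Nfatc1 is well above 0 in both cell types, Ctsk is low in BMSC, and the other genes stay under 1 TPM, which is 1 on this axis, in BMSC.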

How the data were processed

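The authors deposited 1 table of TPM, with a column per library. Per the submitters' processing notes, fastp, HISAT2, StringTie, RSEM and the build GRCm39 were used, and their versions, roles and the annotation are not given in the sources used here. Per the labels' protocols, libraries came from a stranded polyA kit. TPM keep no depth, so no counting intervals are given. Symbols from a mouse reference table matched 52072 of 56979 identifiers, all 9 members among them. The TPM were put on the scale log2(TPM + 1). Two-sided moderated tests came from limma 3.58.1 under R 4.3.3, using lmFit and eBayes with a trend, for genes with at least 1 TPM in at least 3 libraries of the fit, jointly for 9 BMDM and for 6 BMSC libraries, and over all 15 for the difference of NZM responses, which is counted only over members tested in both cell types, a restriction made after the data were seen. P-values were Benjamini-Hochberg adjusted over all tested genes. Replicate numbers were not used as pairs. The procedure was checked on simulated data with 200 changed genes and no shift over all genes, so that check does not cover the choice of scale. The members and gene lists were chosen with earlier results of these data known. Named genes were the members, a set of regulators reported whatever their values (1 is not reported here), up to 4 called genes of a list with the largest changes, and each member's 2 most similar genes. Atp6v0d1, the ratios of genes and single marker genes were chosen after their values were seen. Figures were drawn with Python 3.11.15.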

Additional observations from a re-analysis of the deposited data

Results flagged for a closer look

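The response of Ctsk to NZM differed between the cell types. Its log2 change was 0.05 in LPS_NZM against LPS and -0.80 in Aged_NZM against Aged, and the test of the difference itself gave 0.85 (limma, SE 0.13, adjusted p = 5.12e-05). After median centring it was 0.23 and no longer called (adjusted p = 0.169). Ctsk had 162.3 ± 4.38 TPM in LPS_NZM and 157.3 ± 4.33 TPM in LPS, but 0.817 ± 0.299 TPM in Aged_NZM and 2.16 ± 0.318 TPM in Aged, so the BMSC change rests on levels near 1 TPM. Ctsk passed the filter in BMSC only through Aged, the group where it was higher, so this difference is no independent support for a fall.

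For Nfatc1 the difference of the NZM responses was 0.24 (SE 0.09, adjusted p = 0.0319), from 0.20 in the macrophages and -0.04 in BMSC. It was not called without Aged replicate 1 (adjusted p = 0.0842), Aged_NZM replicate 1 (0.0504) or 2 (0.0752), LPS_NZM replicate 3 (0.0791), or LPS replicate 1 (0.0530) or 3 (0.0870). It turned to -0.38 after median centring (adjusted p = 0.000712). The pretreatments of the cell types differed too, and their parts cannot be told apart.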

How the results depend on the processing

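Of 530 recomputed values of single members, 474 kept direction and call, 28 lost the call, 1 gained it and 27 changed sign, and 12 of 28 results kept both throughout. Scaling mattered most. Median centring turned LPS against Control for Ctsk (0.52) and Oscar (0.12), and LPS_NZM against LPS for Dcstamp (-0.19), Tnfrsf11a (-0.46), Ctsk (-0.42), Nfatc1 (-0.26) and Oscar (-0.31). Quantile normalization turned LPS_NZM against LPS for Dcstamp (-0.19), Tnfrsf11a (-0.35), Nfatc1 (-0.20) and Oscar (-0.09), and LPS_NZM against Control for Acp5 (-0.00) and Ctsk (-0.06). Library weights moved Tnfrsf11a in LPS_NZM against LPS to -0.01. For Nfatc1, centring and quantile normalization gave 0.12 and 0.11 in Aged_NZM against Aged, and -0.38 and -0.32 for the difference of NZM responses. The cause was not tested.

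Members called in LPS_NZM against LPS numbered 3 of 8 at an adjusted p under 0.01, where 68.9% of all genes were called. In Aged_NZM against Aged they numbered 2 of 8 with no filter and 0 of 1 at a filter of 5 TPM, where 33.3% and 78.9% of all genes were called. For the difference of NZM responses 1 of the 2 members tested in both cell types was called at an adjusted p under 0.01, after centring and with no filter, where 64.3%, 68.6% and 36.8% of all genes were called. Leaving out 1 library at a time, members called ranged from 5 to 6 in LPS against Control, 4 to 5 in LPS_NZM against LPS, 5 to 6 in LPS_NZM against Control, 1 to 1 in Aged_NZM against Aged and 1 to 2 of 2 for the difference. Values that changed sign ranged from -0.04 to 0.06 for Tnfrsf11a and -0.06 to 0.32 for Oscar in LPS_NZM against LPS, -0.01 to 0.04 for Ctsk in LPS_NZM against Control, and -0.08 to 0.02 for Nfatc1 in Aged_NZM against Aged.

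Libraries with the same replicate number correlated at -0.0756 to 0.199 in their deviations, and those with different numbers at -0.184 to 0.0996. The highest value was between libraries of the same number, but the ranges overlapped. With so few libraries per group, such weak correlations cannot decide whether the numbers mark pairs. A fit with the replicate block called 6, 5 and 6 members in LPS against Control, LPS_NZM against LPS and LPS_NZM against Control, and 11683, 11089 and 6681 genes in all (80.7%, 76.5% and 46.1% of those tested). TPM give no depth, which limits what can be said of Oscar and Calcr.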
